A study of Canis lupus familiaris with 8 samples.

Results

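The genes described here encode 5 proteins of the actin and intermediate filament cytoskeleton that are used to recognise myofibroblasts: the smooth muscle actins ACTA2 and ACTG2, the actin crosslinker FLNA, and the intermediate filament proteins VIM and DES. They were chosen by gene symbol, 5 of the 6540 genes that have a probe set with a single symbol. The platform annotation gave one of these symbols alone to 12 of 23836 probe sets other than array controls (1 for ACTA2, 4 for ACTG2, 5 for FLNA, 1 for VIM and 1 for DES), and 10 of the 12 were bright enough to be tested. Another 5 probe sets listed VIM together with a second symbol and were not used. The samples were anterior mitral valve leaflets of 8 dogs, 1 Affymetrix array per dog. The 4 affected dogs had degenerative mitral valve disease (DMVD). Dogs 2 and 4 of them were Miniature poodles, dog 1 was a Lhasa apso and dog 3 a Dachshund. The 4 controls were all beagle crosses, so disease and breed cannot be told apart. No age or treatment of the dogs is given in the sources used here.

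Interstitial cells of a healthy leaflet resemble quiescent fibroblasts and hold their shape with vimentin filaments. In diseased valves a share of them is known to take on a myofibroblast state, in which ACTA2 is built into contractile stress fibres and filamin links actin to the membrane and to integrins. Desmin is the intermediate filament of heart, skeletal and smooth muscle and also appears in some myofibroblasts, so a leaflet piece that carries atrial muscle brings desmin with it.

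Signals are MAS5 probe set values on a linear intensity scale, already scaled by the authors to the same trimmed mean on every array. Differences are log2 signal, affected minus control, with the standard error (SE) of limma, 4 dogs per group, and p-values adjusted by Benjamini-Hochberg over all 14705 tested probe sets. Of all tested probe sets, 0 (0%) passed an adjusted p of 0.05, with a smallest limma adjusted p of 0.238. At an unadjusted limma p under 0.05, 591 (4.02%) had higher and 560 (3.81%) lower signal in affected dogs. None of the 10 tested probe sets described here passed, so no gene is called higher or lower. In bulk tissue fewer cells of a type and less RNA per cell cannot be told apart.

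Some arrays stood apart. The mean of the 19 heart muscle genes measured, of 32 listed, on the log2 scale was 11.59, 12.59, 9.60 and 11.32 in affected 1 to 4, against 11.46, 13.42, 10.63 and 12.15 in control 1 to 4. These 19 are the genes bright enough to be tested, of 22 listed genes named on the array. All 19 were above the floor on every array, which the brightness filter made likely in advance. Their mean was highest in control 2 and lowest in affected 3. Their summed signal was 26596 to 233316 in affected dogs and 55115 to 326199 in controls. The 9 control transcripts that are added to each hybridisation had a geometric mean signal of 5927 in affected 1, 3879 in affected 2, 2109 in affected 3 and 1917 in affected 4, against 1718 to 2849 in controls. The 3' over 5' ratio of the array's GAPDH control probe sets was 1.12 to 1.46 in affected dogs and 1.00 to 1.34 in controls. The same ratio of the actin control probe sets was 0.500 to 1.44 in affected dogs, highest in affected 1, and 0.284 to 0.983 in controls, lowest in control 2. Affected 1 and control 2 were also the highest and the lowest dog for FLNA, and the part of these ratios in the results was not tested.

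FLNA, filamin A, crosslinks actin filaments into networks and ties them to integrin tails. The brightest of its probe sets, 1589785_s_at, had signals of 14306, 6644, 6352 and 5547 in affected 1 to 4, against 4412, 2417, 5051 and 4809.6 in control 1 to 4. Every affected dog lay above every control, with affected 1 far above the other affected dogs and control 2 lowest. The log2 difference was 0.92 ± 0.35, a ratio of 1.90 with a 95% interval from 1.10 to 3.27 (limma adjusted p = 0.595). The suffix _s_ of this probe set means that it can match more than 1 transcript. The second FLNA probe set, 1598914_at, had 8259, 5825, 4227 and 4281 in affected 1 to 4, against 3034, 2011, 3127 and 2819 in control 1 to 4. The groups did not overlap here either, and the difference was 1.00 ± 0.28, a ratio of 2.01 with an interval from 1.31 to 3.08 (limma adjusted p = 0.442, the smallest of the 10). All affected dogs lay above all controls for 2.35% of the tested probe sets and below them for 2.31%. Of the 10 described here, 2 lay above, these FLNA sets, and 0 below.

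The other 3 FLNA probe sets were dimmer and did not follow the first 2. Probe set 1604976_at ranged from 499.7 to 1357 in affected dogs and from 493 to 1096 in controls, with a difference of 0.13 ± 0.37. Probe set 1603298_at ranged from 56.0 to 212 in affected dogs and from 111 to 389 in controls, with a difference of -0.49 ± 0.52, against the direction of the others. Probe set 1603274_at ranged from 80.5 to 161 in affected dogs and from 55.5 to 144 in controls, with a difference of 0.48 ± 0.39. The groups overlapped for all 3. The direction of 1604976_at turned to -0.12 without affected 3, to -0.07 without control 2 and to -0.0015 without affected 4. Probe set 1603298_at was at -0.10 without affected 1 and also without control 4.

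**Figure D1:**
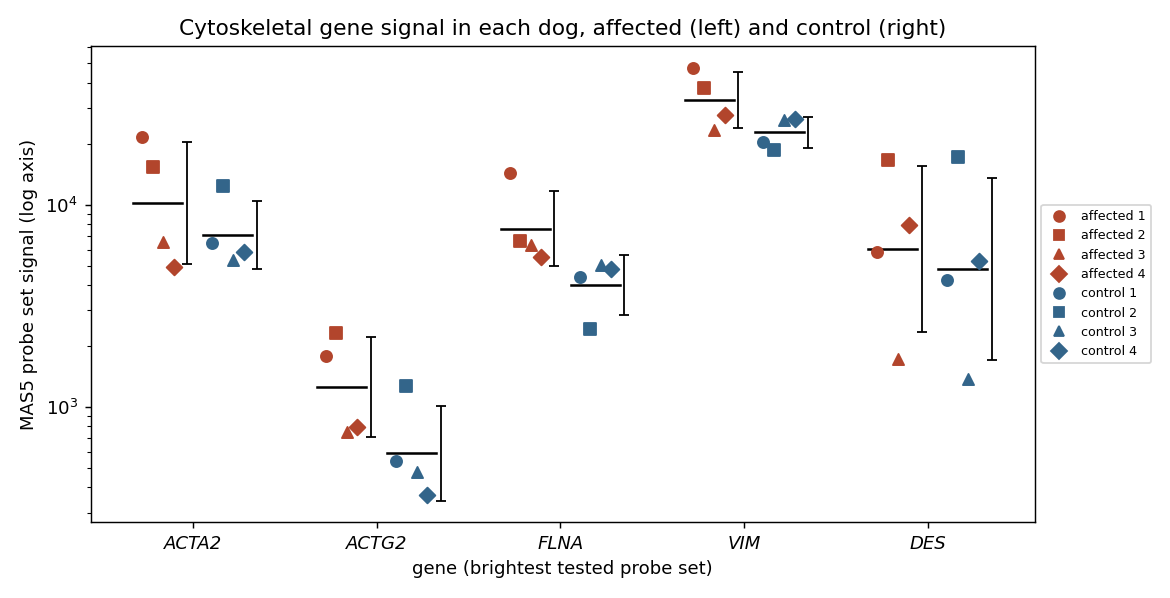
MAS5 signal (log axis) of the brightest tested probe set of each gene, 1 point per dog, affected dogs left of controls. Black lines are means of log2 signal and error bars are ± 1 SD of log2 signal (n = 4). FLNA is the gene whose groups do not overlap, and affected 1 is the highest dog for ACTA2, FLNA and VIM.

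ACTG2 encodes the gamma actin of visceral smooth muscle. Its brightest probe set, 1586210_at, had signals of 1786, 2307, 749 and 796 in affected 1 to 4, against 541, 1270.1, 478 and 366 in control 1 to 4. Affected 1 and 2 were highest, and control 2 lay above affected 3 and 4, which was the only overlap. The log2 difference was 1.09 ± 0.47, a ratio of 2.13 with an interval from 1.03 to 4.40 (limma adjusted p = 0.627). A second probe set, 1599410_s_at, had 2114, 2339, 379 and 270.4 in affected 1 to 4, against 324, 373, 175 and 119 in control 1 to 4. Its difference was 1.91 ± 0.72, a ratio of 3.77 with a wide interval from 1.25 to 11.3 (limma adjusted p = 0.582), and the groups overlapped through affected 4 and, on the other side, control 1 and 2. The suffix _s_ marks a probe set that can match more than one transcript, and the muscle actins are close to identical in their coding sequence, so its signal may hold other actins. The remaining 2 ACTG2 probe sets were too dim to test. Probe set 1595459_at ranged from 2.57 to 128 in affected dogs and from 14.2 to 46.5 in controls, and 1599638_at from 28.6 to 55.6 in affected dogs and from 13.0 to 111 in controls.

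ACTA2, alpha smooth muscle actin, is the usual marker of the myofibroblast. Its single probe set, 1585221_s_at, had signals of 21729, 15376.5, 6565 and 4929 in affected 1 to 4, against 6481, 12447, 5341 and 5828 in control 1 to 4. This set also has the suffix _s_, so its signal may hold other actins. Affected 1 and 2 exceeded every control, affected 4 was the lowest of all 8 dogs, and control 2 lay above affected 3 and 4. The difference was 0.53 ± 0.48, a ratio of 1.44 with an interval from 0.693 to 2.99 (limma adjusted p = 0.774). It was 0.16 without affected 1, 0.33 without affected 2, 0.88 without affected 4 and 0.80 without control 2. Without affected 1 and affected 2, the arrays with the highest hybridisation controls, ACTA2 differed by -0.32 ± 0.38, so its direction rested on those 2 dogs. In the same setting the differences were 0.39 ± 0.49 for ACTG2, 0.57 ± 0.34 for FLNA, 0.16 ± 0.23 for VIM and -0.37 ± 0.98 for DES. This setting was chosen after seeing the data.

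**Figure D2:**
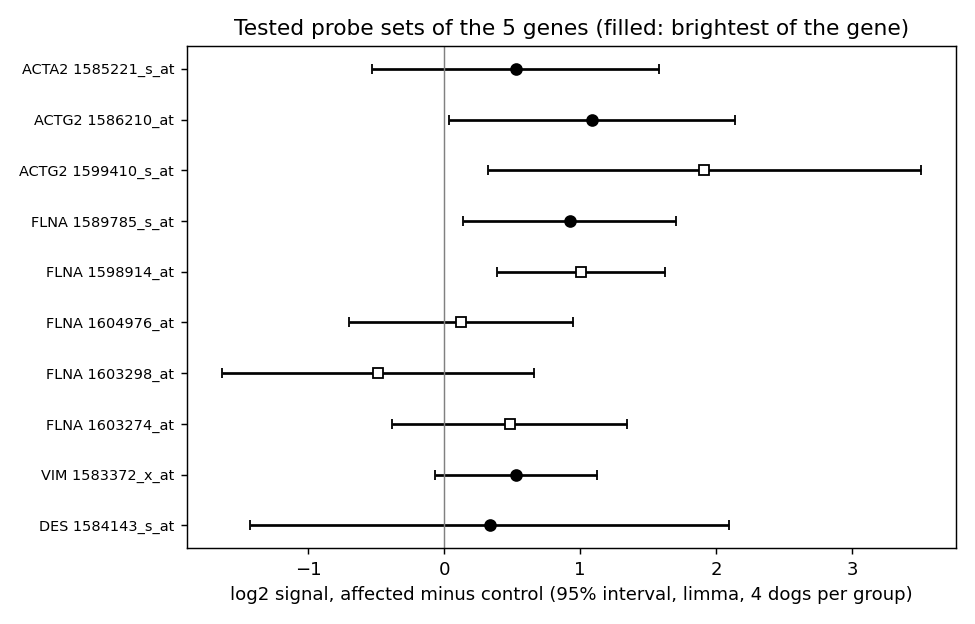
Log2 difference in signal, affected minus control, for the 10 tested probe sets, with 95% intervals from limma (4 dogs per group). Filled circles are the brightest probe set of a gene. The intervals of both ACTG2 sets and of the 2 bright FLNA sets lie above 0 before adjustment, and 1 FLNA set has a negative difference of -0.49.

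VIM, vimentin, forms the intermediate filaments of fibroblasts, endothelium and leukocytes. Probe set 1583372_x_at was bright in every dog, with signals of 47706, 37874, 23395 and 27677 in affected 1 to 4, against 20508, 18656.5, 26405 and 26709 in control 1 to 4. Affected 1 and 2 lay above all controls, affected 4 just above the highest control and affected 3 between the controls. The difference was 0.53 ± 0.27, a ratio of 1.44 with an interval from 0.955 to 2.18 (limma adjusted p = 0.666). It was 0.35 without affected 1 and 0.11 with quantile normalization. The suffix _x_ marks probes that may also match unrelated sequences.

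DES, desmin, varied more between dogs than the brightest probe set of any other of the 5 genes. Probe set 1584143_s_at had signals of 5862, 16628, 1731 and 7911 in affected 1 to 4, against 4229, 17227, 1372 and 5285 in control 1 to 4. It is the only DES set, and its suffix _s_ means that it can also match other transcripts. The groups overlapped throughout, with affected 2 and control 2 high and affected 3 and control 3 low. The standard deviation of log2 signal was 1.36 in affected dogs and larger still in controls, compared with 0.26 to 1.01 for the brightest probe sets of the other 4 genes. For ACTG2 probe set 1599410_s_at it was 1.63 in affected dogs and 0.77 in controls. The difference was 0.33 ± 0.79, a ratio of 1.26 with an interval from 0.372 to 4.27 (limma adjusted p = 0.925), and it turned to -0.15 without affected 2 and to -0.27 without control 3. It was 0.94 without affected 3, 0.95 without control 2 and 0.20 without affected 4.

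The next question was how far each gene followed the heart muscle transcripts of its sample. Of the 5 genes DES alone passed. Over the 8 dogs its log2 signal correlated with the heart muscle mean with Pearson's r = 0.89 (exact permutation p = 0.00456, 0.0228 adjusted over the 5 genes) and Spearman's rho = 0.81 (exact permutation p = 0.0218, 0.109 adjusted). Without affected 3 and control 2, the dogs farthest from the median of the heart muscle mean, r was 0.85 over 6 dogs (exact permutation p = 0.0486) and rho was 0.60 (exact permutation p = 0.242). As deviations from the group means r was 0.98 (adjusted exact permutation p = 0.0174). The adjusted exact permutation p of r was 0.0685 without affected 2, 0.0823 without affected 3 and 0.0903 without control 2, with r between 0.85 and 0.88, so the call ended without any one of these dogs.

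The other 4 genes followed heart muscle less closely and none passed. ACTA2 had r = 0.49 and rho = 0.50 (exact permutation p = 0.224 and 0.216), and ACTG2 had r = 0.40 and rho = 0.43 (exact permutation p = 0.327 and 0.299). FLNA had r = -0.39 and rho = -0.24 (exact permutation p = 0.335 and 0.582), and VIM had r = -0.0039 and rho = 0.048 (exact permutation p = 0.993 and 0.935). The adjusted exact permutation p of r was 0.419 for ACTA2, ACTG2 and FLNA and 0.993 for VIM. Without the same 2 dogs r was 0.47 for ACTA2, 0.46 for ACTG2, 0.13 for FLNA and 0.35 for VIM, and without control 2 alone r was 0.07 for FLNA, so its negative sign rested on that dog. As deviations from the group means r was 0.77 for ACTG2, 0.65 for ACTA2, -0.27 for FLNA and 0.24 for VIM (adjusted exact permutation p = 0.122, 0.188, 0.639 and 0.639). In control 2, where heart muscle signal was highest, FLNA and VIM were at their lowest and DES at its highest of all 8 dogs.

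**Figure D3:**
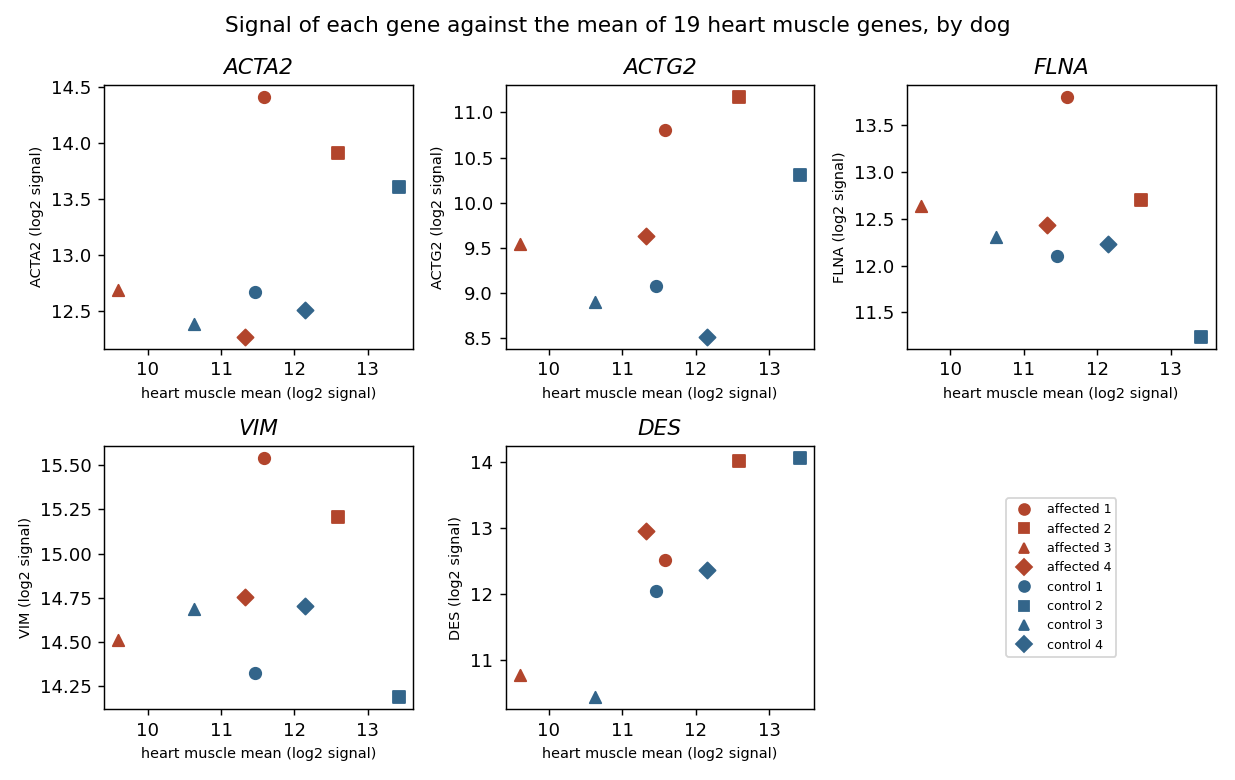
Log2 signal of each gene against the mean log2 signal of 19 heart muscle genes on the same array, 1 point per dog. DES climbs along the heart muscle mean (r = 0.89), whereas VIM shows no trend (r = -0.0039) and control 2 is the lowest point for FLNA and VIM.

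With the heart muscle mean as a covariate in limma, DES had a slope of 1.15 ± 0.11 log2 units per log2 unit of heart muscle (limma adjusted p = 0.000866). A slope passed for 1.97% of the tested probe sets, and a positive one for 1.64%. ACTG2 had a slope of 0.51 ± 0.16 (limma adjusted p = 0.139), ACTA2 of 0.44 ± 0.18 (0.229), FLNA of -0.12 ± 0.16 (0.725) and VIM of 0.07 ± 0.12 (0.789). In this fit the difference between affected and control dogs was 1.07 ± 0.25 for DES (limma adjusted p = 0.207), 1.41 ± 0.35 for ACTG2 (0.225) and 0.81 ± 0.39 for ACTA2 (0.460). It was 0.84 ± 0.36 for FLNA (0.410) and 0.58 ± 0.27 for VIM (0.442). In this fit 0 of the tested probe sets passed for the difference between the groups.

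DES and ACTG2 were therefore set against the heart muscle mean of their own array. On the log2 scale DES lay above that mean by 0.93, 1.43, 1.16 and 1.63 in affected 1 to 4, against 0.59, 0.65, -0.20 and 0.22 in control 1 to 4. Every affected dog had more desmin signal for its heart muscle signal than every control, and the means were 1.29 ± 0.30 in affected dogs and 0.31 ± 0.39 in controls (SD, n = 4 each). The difference of 0.97 had an exact permutation p of 0.0286, two-sided, the smallest that 4 against 4 dogs can give. ACTG2 lay at -0.78, -1.42, -0.051 and -1.69 in affected 1 to 4, against -2.38, -3.11, -1.73 and -3.63 in control 1 to 4. Its groups were also apart, though by only a small gap between affected 4 and control 3, with a difference of 1.73 (exact permutation p = 0.0286). Subtracting the whole mean takes a slope of 1, while ACTG2 had a fitted slope of 0.51 ± 0.16. With that slope fitted its difference was 1.41 ± 0.35 (limma adjusted p = 0.225). In signal minus the heart muscle mean, all affected dogs lay above all controls for 0.503% of the tested probe sets.

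ACTA2, FLNA and VIM overlapped between the groups in the same measure, with differences of 1.16, 1.56 and 1.17 (exact permutation p = 0.143, 0.2 and 0.257). These 5 comparisons were chosen after the values were seen, and adjusted over the 5 (Benjamini-Hochberg) the exact permutation p was 0.0714 for DES and for ACTG2, so neither passed. By construction each of these differences is the plain log2 difference minus that of the heart muscle mean, which was -0.64 (11.28 in affected dogs and 11.91 in controls), so most of the 0.97 of DES came from the subtracted mean. All 19 heart muscle genes had lower mean signal in affected dogs, with a median of -0.61 and 0 past the threshold. That direction rested on single dogs: without affected 3 the median was 0.10 with 12 of 19 higher, and without control 2 it was -0.12 with 7 higher. CACNA1C, a calcium channel, differed by -0.61 ± 0.30, the sarcomere protein MYOZ2 by -1.16 ± 0.64 and the stress-responsive ANKRD1 by -1.05 ± 0.66. Without control 2, MYOZ2 was at -0.64 and ANKRD1 at -0.50. Of the 19, each set against the other 18, TNNC1 alone had all affected dogs above all controls (5.26%). With the median of the heart muscle genes in place of the mean, the unadjusted exact permutation p was 0.0857 for ACTG2 and 0.0286 for DES. With 9 sarcomere genes it was 0.0571 for ACTG2 and 0.0857 for DES. Leaving out 1 dog gave an unadjusted exact permutation p of 0.0571 for ACTG2 without any 1 of the affected dogs, control 2 or control 4, and for DES without control 3.

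**Figure D4:**
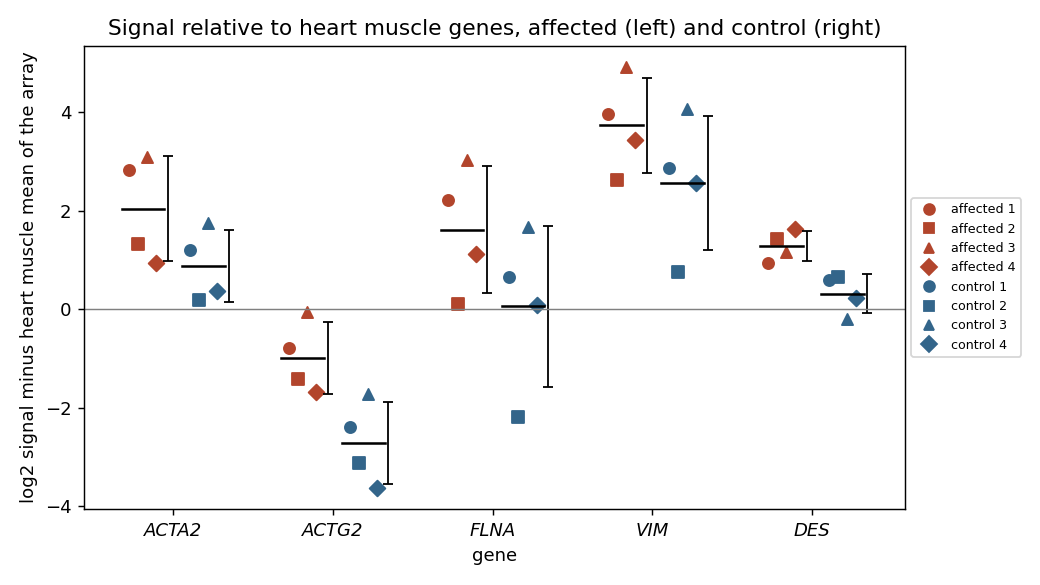
Log2 signal of each gene minus the heart muscle mean of the same array, 1 point per dog, affected left of control, with group means and ± 1 SD (n = 4). DES and ACTG2 are the genes whose groups do not overlap, and for DES the affected mean is 1.29 against 0.31 in controls.

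The 5 genes also differed in which of them moved together from dog to dog, over 10 pairs. FLNA and VIM had r = 0.89 (exact permutation p = 0.00186, 0.0186 adjusted over the 10 pairs) and rho = 0.83 (exact permutation p = 0.0154, 0.154 adjusted). ACTA2 and ACTG2 had r = 0.87 (exact permutation p = 0.00694, 0.0347 adjusted) and rho = 0.71 (exact permutation p = 0.0576, 0.192 adjusted). Neither passed without the 2 dogs farthest from the median. Without affected 1 and control 2, FLNA and VIM had r = 0.64 (exact permutation p = 0.161), and without affected 1 and 2, ACTA2 and ACTG2 had r = 0.69 (exact permutation p = 0.146). The ACTA2 probe set may hold signal of other actins, and how far that bears on its relation to ACTG2 was not tested. No other pair passed, with an adjusted exact permutation p of r from 0.271 to 0.758. Some signs rested on affected 1 and 2. Without them ACTA2 and VIM went from r = 0.59 to -0.88 (unadjusted exact permutation p = 0.00556). ACTA2 and FLNA went from 0.42 to -0.88 (unadjusted exact permutation p = 0.075).

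The hybridisation controls moved with the same dogs. Their log2 mean correlated with VIM at r = 0.86 and rho = 0.57 (exact permutation p = 0.00722 and 0.151) and with ACTA2 at r = 0.85 and rho = 0.74 (exact permutation p = 0.00925 and 0.0458). The adjusted exact permutation p of r over the 5 genes was 0.0231 for both, while that of rho was 0.270 and 0.229. Without affected 1 and 2, r was 0.15 for VIM and 0.24 for ACTA2 (exact permutation p = 0.767 and 0.593), so the relation rested on those arrays. The group means of the controls were 11.60 ± 0.77 in affected dogs and 11.10 ± 0.31 in control dogs (log2, SD, n = 4, exact permutation p = 0.286).

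For each gene the genes with the most similar pattern over the 8 dogs were looked up among 5433 others, by Pearson's r on log2 signal. No p is given, since each was picked as the highest of that number. FLNA was most like TMEM183A (r = 0.97), MICAL2 (0.97), an enzyme that oxidises actin, and BMP6 (0.97), a growth factor. BMP6 put the 8 dogs in exactly the order of FLNA (rho = 1.00), with signals from 1968 to 8524 in affected dogs and from 461 to 1493 in controls. VIM was most like PHKG2 (0.98), the chromatin protein PTMA (0.98) and B2M (0.96), the light chain of class I molecules. DES was most like ITGB1BP2 (0.98), a muscle integrin partner, ART3 (0.98) and HSPB7 (0.98), a small heat shock protein of muscle. ACTA2 was most like ASPSCR1 (0.96), STOX2 (0.96) and ALKBH3 (0.95), and ACTG2 like HIRA (0.96), CDRT1 (0.95) and LOC478703 (0.94).

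The other actins had differences well within their errors. The skeletal actin ACTA1 differed by 0.19 ± 0.44, the cardiac actin ACTC1 by 0.11 ± 0.42, and the cytoplasmic actins ACTG1 and ACTB by 0.09 ± 0.27 and 0.09 ± 0.29. All 4 means were higher in affected dogs with overlapping groups, against 50.5% of all tested probe sets, and each sign turned when some single dog was left out. Over the scalings and floors tried ACTC1 went as low as -0.13.

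Genes of the contractile apparatus of smooth muscle and myofibroblasts were measured for 16 of 27 listed. Of these, 10 were higher and 6 lower in affected dogs, with a median of 0.22, against a median of 0.0065 over all tested probe sets, and 0 passed. The median was 0.08 without affected 1 and 0.09 without affected 2. TPM3, a cytoplasmic tropomyosin, had signals of 7894, 5953, 7688 and 6792 in affected 1 to 4, against 5614, 3959, 3488 and 4975 in control 1 to 4. It was the only one of the 16 with no overlap and differed by 0.67 ± 0.23 (limma adjusted p = 0.548). Of all tested probe sets, 2.35% had all affected dogs above all controls and 2.31% had them below. CALD1, caldesmon, which restrains actomyosin, differed by 0.69 ± 0.34 and was at 0.43 without control 2. MYLK, the kinase that switches on smooth muscle myosin, differed by -0.91 ± 0.45, with signals from 87.0 to 180 in affected dogs and from 99.97 to 372 in controls.

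**Figure D5:**
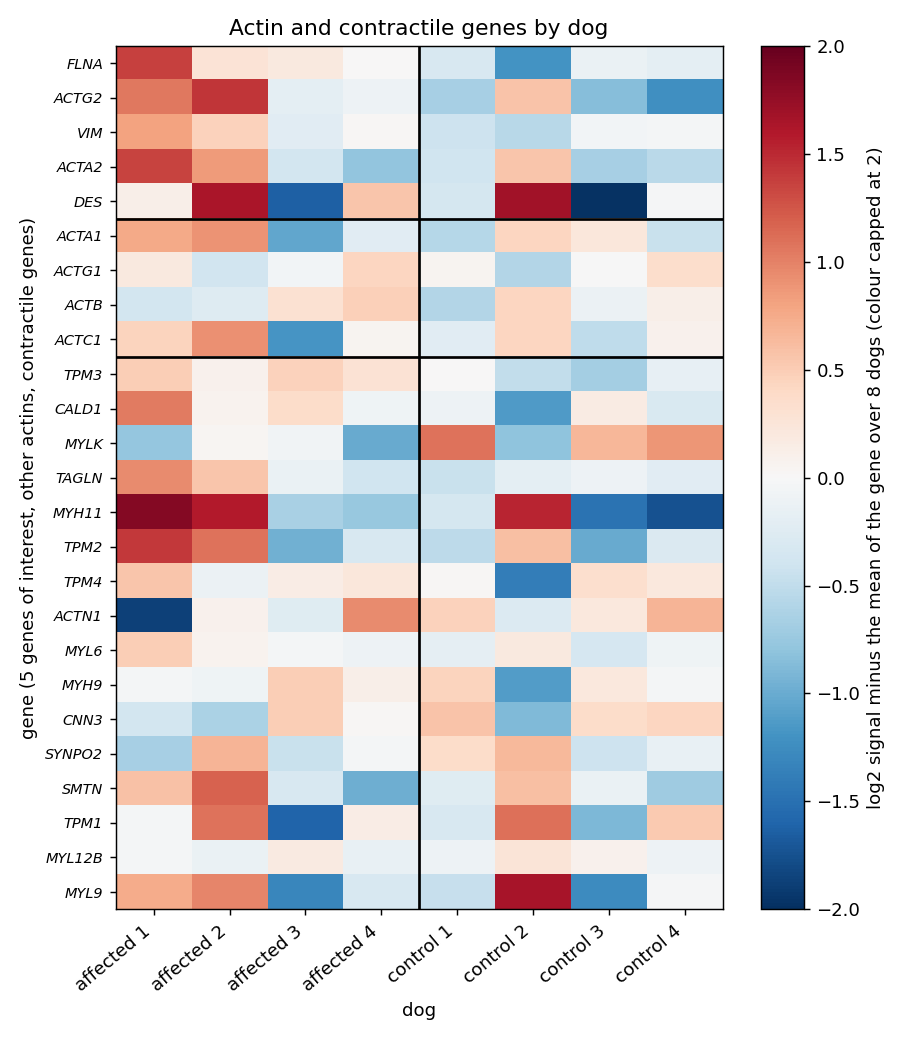
Log2 signal minus the mean of the gene over the 8 dogs, for the 5 genes, 4 other actins and 16 contractile genes, with affected dogs left of the vertical line. Affected 1, affected 2 and control 2 share high values of ACTA2, ACTG2 and MYH11, whereas TPM3 is higher in all 4 affected dogs.

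MYH11, the myosin heavy chain of mature smooth muscle, followed the dogs of ACTA2 and ACTG2. Its signals were 2964, 2499, 530.1 and 492 in affected 1 to 4, against 649, 2387, 299 and 249 in control 1 to 4. Affected 1, affected 2 and control 2 stood apart from the other 5 dogs. The difference was 1.02 ± 0.80 and was 0.57 without affected 1 and 1.70 without control 2. MYH11 is also one of 3 measured markers of vascular smooth muscle and pericytes out of 10 listed, whose summed signal was 2196 to 9364 in affected dogs and 2228 to 7235 in controls. The others were SMTN, smoothelin, at 0.24 ± 0.46 and the potassium channel KCNJ8 at -0.15 ± 0.64. SMTN turned to -0.11 without affected 2 and KCNJ8 to 0.32 without control 2. The part of vessel wall cells in the actin signals was not tested.

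Partners of filamin in adhesion plaques gave no common direction with FLNA. Of 7 measured among 17 listed, 2 were higher and 5 lower, with a median of -0.17, or -0.03 without control 4, and 0 past the threshold. LIMS1, an adaptor of the integrin-linked kinase, differed by -0.61 ± 0.32, PDLIM5 by -1.77 ± 1.10 and VCL, vinculin, by -0.46 ± 0.31. PDLIM5 was 5166 in control 2 and 26.9, below the floor, in affected 3, the dogs with the most and the least heart muscle signal, and it was at -0.78 without affected 3. LIMS1 was at -0.38 without affected 1 and VCL at -0.24 without affected 4.

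The partners of the intermediate filaments had no common direction. Of 6 measured among 14 listed, 3 were higher and 3 lower, with a median of -0.29 and 0 past the threshold. The median was -0.64 without affected 2 and -0.11 without control 2. SYNM, synemin, which joins desmin and vimentin filaments, differed by -1.12 ± 0.60, the linker DST by -0.63 ± 0.33 and DSP, desmoplakin, which anchors desmin in heart muscle junctions, by -0.94 ± 0.68. All 3 were highest in control 2, and without that dog DST and DSP were at -0.39 and -0.40. SYNM was at -0.66 without affected 1.

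Genes tied to serum response factor, which drives smooth muscle genes, were measured for 3 of 11 listed names, and 0 passed. FHL2 differed by -0.96 ± 0.48 and the targets CCN2 and CCN1, secreted matrix proteins, by 0.57 ± 0.30 and 0.69 ± 0.52. FHL2 was 6387 in control 2 and at -0.51 without it, CCN2 was at 0.33 without affected 1, and CCN1 was at 0.19 without affected 3.

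Markers of activated fibroblasts were higher by mean in all 6 measured of 15 listed, with a median of 0.86 and 0 past the threshold. Without control 2, 4 of the 6 were higher and the median was 0.46. TGFB1, the growth factor that turns fibroblasts into myofibroblasts in culture, differed by 0.74 ± 0.36. FN1, fibronectin, had 25612, 28369.6, 17958 and 18884 in affected 1 to 4, against 15855, 3606, 17491 and 16373 in control 1 to 4, with no overlap. It was the only one of the 6 with all affected dogs above all controls, against 2.35% of all tested probe sets. POSTN, periostin, ranged from 2648 to 9593 in affected dogs and from 168 to 6591 in controls. FN1 and POSTN differed by 0.98 ± 0.47 and 1.81 ± 0.94, and both were lowest in control 2, without which they were at 0.43 and 0.82.

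Genes of actin filament turnover were higher by mean in 9 of 12 measured among 20 listed, with a median of 0.35 and 0 past the threshold. The median was 0.18 without affected 4 and 0.19 without control 2. WDR1, which helps cofilin take filaments apart, differed by 0.79 ± 0.29 and CAP1, which recycles actin monomers, by 0.89 ± 0.33. CFL2, the muscle form of cofilin, differed by -0.70 ± 0.37 and was 6582 in control 2, without which it was at -0.35. WDR1 and CAP1 each had overlapping groups.

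Markers of other cell types were compared between the groups in the same samples, and 0 passed. All 15 measured macrophage markers of 16 listed had a higher mean in affected dogs, with a summed signal of 22718 to 50547 in affected dogs and 1695 to 21177 in controls. Among them FCER1G differed by 2.91 ± 0.44, CD14 by 2.09 ± 0.45 and FCGR1A by 3.53 ± 0.77. FCER1G was at the floor in 3 controls, MARCO in all 4, and FCGR1A, C1QA and AIF1 in control 2. Since the floor sets the control level of FCER1G, its difference ran from 1.69 to 4.20 over the scalings and floors tried. All 8 measured endothelial markers of 12 listed had a higher mean, with sums of 16777 to 29329 in affected dogs and 8947 to 12704 in controls, and none at the floor. NOS3, ENG and PECAM1 differed by 1.07 ± 0.29, 1.27 ± 0.35 and 1.01 ± 0.34. Both cell types are known to express VIM and FLNA, and their part in the VIM and FLNA signals was not tested. Of fat cell markers 3 of 7 were measured, ADIPOQ at -2.82 ± 1.36, LEP at -0.48 ± 0.33 and PPARG at 0.22 ± 0.39, with sums of 381 to 676 in affected dogs and 313 to 10293 in controls. Without control 3, ADIPOQ was at -1.72 and LEP at -0.24, without control 2 ADIPOQ was at -4.44, and PPARG turned to -0.13 without affected 2.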

How the data were processed

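Total RNA came from leaflets frozen in liquid nitrogen, per the labels, with 1 array for each dog and separate animals as replicates. What was deposited is 1 linear signal intensity per probe set and array, computed by the authors with MAS5, per the submitters' processing notes, which name no version. The trimmed mean (2% off each end) was 500.1 on every array. The number of arrays limits the precision. Here signals were rescaled to that mean, floored at 34.2 (the 20th percentile, 5.10 in log2) and log2-transformed. Probe sets were tested where at least 4 of 8 arrays exceeded their own 40th percentile, with limma 3.58.1 in R 4.3.3 (eBayes with trend, two-sided, Benjamini-Hochberg). Symbols came from the platform annotation, no genome build is used, and the brightest tested probe set stood for a gene. Exact permutation tests used all 70 splits of the 8 dogs or all orderings, and with dogs left out those of the dogs that remained. For correlations of deviations from the group means, only orderings within the groups were used. Members and lists were chosen with earlier results of these data known. The text names every member probe set, the 3 genes with the smallest p of each list, the other actins and the 3 most similar genes of each member. TNNC1, MARCO, C1QA and AIF1 were singled out after their values were seen. Replicate numbers were not taken as pairs of dogs: deviations of same-numbered dogs correlated at -0.12, 0.41, 0.022 and -0.013. The 0.41 was that of affected 2 with control 2, against 0.46 for affected 3 with control 1. DES and the heart muscle mean were nevertheless highest in replicate 2 and lowest in replicate 3 of both groups, and the reason was not tested. Alternatives covered scaling, floor, filter, variance model, array weights, replicate block, a heart muscle covariate and each dog left out.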

Additional observations from a re-analysis of the deposited data

Results flagged for a closer look

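In 10 of 112 groups of 4 dogs examined, a dog lay far from the other 3 on the log2 scale, where chance gives about 1 in 20. In 3 of the 10 the other dogs were all at the floor, which fixes the outcome. The groups include genes picked by smallest p in these data and share the same 8 dogs. The other 7 therefore cannot be tested against the 1 in 20. Control 2 was such a dog for DST at 13.05 (others 11.99 to 12.14), for CFL2 at 12.68 (others 11.18 to 11.36) and for FN1 at 11.82 (others 13.95 to 14.09). Affected 2 was one for CFL2 at 11.58 (others 10.61 to 10.77) and MYOZ2 at 12.55 (others 10.43 to 10.75). Affected 3 was one for CACNA1C at 7.94 (others 6.92 to 7.07), and affected 1 for LEP at 6.91 (others 6.46 to 6.50). The 3 groups whose other dogs were at the floor of 5.10 were ACTG2 probe set 1595459_at in controls (control 3 at 5.54), ACTG2 probe set 1599638_at in affected dogs (affected 4 at 5.80) and FCER1G in controls (control 1 at 6.42).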

How the results depend on the processing

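No alternative made any of the 5 genes pass in the comparison of affected with control dogs. The count of called probe sets was 0, but 4 with the replicate block, 0 to 1 when 1 dog was left out (1 without control 1), and 128 without affected 3 and control 2, a setting added after seeing the data. With the replicate block ACTG2 had a limma adjusted p of 0.216 and FLNA of 0.387, and the block changed no call for the 5 genes. The block lowered the SE from 0.79 to 0.235 for DES and from 0.47 to 0.28 for ACTG2. It fell less for ACTA2 and FLNA and rose from 0.27 to 0.29 for VIM. Leaving out 1 dog gave ranges from 0.16 to 0.88 for ACTA2, 0.79 to 1.46 for ACTG2, 0.62 to 1.08 for FLNA, 0.35 to 0.69 for VIM and -0.27 to 0.95 for DES, which turned without affected 2 (-0.15) and control 3 (-0.27). Without affected 1 and 2, ACTA2 was at -0.32, DES at -0.37, ACTG2 at 0.39, FLNA at 0.57 and VIM at 0.16. FLNA probe set 1603298_at gave -0.49. The cause was not tested. For the correlation with heart muscle, leaving out 1 dog gave r from 0.85 to 0.92 for DES, from -0.61 to 0.065 for FLNA (turned without control 2) and from -0.20 to 0.46 for VIM (turned without control 2 and, at 0.0023, without control 4). VIM was also at 0.042 with the median of the heart muscle genes, 0.16 with 9 sarcomere genes and 0.24 as deviations from group means, so its sign was not stable. Relative to the heart muscle mean, the difference was 1.41 to 2.05 for ACTG2 and 0.80 to 1.09 for DES with 1 dog left out. It was 1.56 for ACTG2 with the median and 1.55 with 9 sarcomere genes, and 0.79 for DES with the sarcomere list, each with an unadjusted exact permutation p above 0.05, against 0.0286 with the mean (0.0714 adjusted over 5 genes). Low signals near the floor limit the dim ACTG2 and FLNA probe sets.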
